A study of Mus musculus with 12 samples.

Results

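Myeloid cells of mice with a conditional knockout of Fabp5 were compared with those of Flox mice 4 h after saline was injected into the hind paw, the vehicle arm of a study of myeloid FABP5 in inflammatory pain. The comparison rests on 6 of the 12 libraries of the series, chosen by the genotype and treatment given in their labels. The knockout group (cKO) held 3 libraries of FABP5Flox/LysM-Cre mice, pools 1-4, 5-8 and 9-12, and the Flox group held 3 libraries of FABP5Flox mice, pools 1-3, 4-7 and 8-10. By these number ranges the cKO pools came from 12 mice and the Flox pools from 10 mice, and both groups carried the loxP-flanked Fabp5 allele. All mice were adult, and strain, sex and exact age are not given in the labels. Cells that were CD45+, CD11b+ and Ly6G- were sorted from dissociated paws, so that leukocytes of the myeloid line other than neutrophils were sought. The other 6 libraries are the same genotypes after 1% carrageenan and serve only for the difference between treatments.

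FABP5 is a small cytosolic protein that carries fatty acids and endocannabinoids within cells and can bring such ligands to nuclear receptors of the PPAR family. In the LysM-Cre line, Cre recombinase sits in the lysozyme 2 locus, Lyz2, and is active in macrophages, monocytes and neutrophils, with a deletion that need not reach every cell. Skin and paw tissue hold resident macrophages, monocytes and dendritic cells that pass a CD11b gate, and these cells take up fatty acids, present antigen and release chemokines.

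The model has limits that touch every value below. No group carried LysM-Cre without the floxed gene or the floxed gene on another Cre, so effects of Cre, of the altered Lyz2 allele and of the loss of Fabp5 cannot be told apart. Each library is a mix of 3 or 4 mice, so the spread is that between pools. Fewer cells of a type and less RNA per cell cannot be told apart in such bulk libraries.

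Depth differed between the genotypes before any gene was compared. The cKO libraries held 1931668, 2987015 and 1145606 reads on genes, against 111925, 294546 and 637238 in Flox. All cKO libraries were deeper than all Flox libraries, by 6.80 times in geometric means (exact two-sided permutation p = 0.1, the smallest that 20 permutations allow). Genes with at least 1 read numbered 15069 to 16225 in cKO and 8384 to 13417 in Flox. After thinning every library to 111925 reads, they numbered 9275 to 10117 in cKO and 8384 to 9854 in Flox. Flox pool 1-3 stood apart on the first principal component, which held 74.4% of the variance, and 2106 of 9371 tested genes had no read in it, against 242 in Flox pool 4-7 and 20 in Flox pool 8-10. Results are therefore given with and without Flox pool 1-3 where it moves them.

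The test across genes passed none of them. Values are normalized counts, in which 1 read was worth 0.268 to 0.622 in cKO and 1.14 to 5.46 in Flox, and differences are on the log2(value + 1) scale, cKO minus Flox, with their standard error (SE). Of 9371 genes that reached 5 in 3 or more libraries, limma called 0 at an adjusted p under 0.05 (Benjamini-Hochberg), a share of 0%. Its lowest adjusted p was 0.683, and 508 genes had an unadjusted p under 0.05, of which 289 were higher and 219 lower in cKO. The quasi-likelihood test of edgeR on whole reads recovered from the values also called 0 genes, with 669 at an unadjusted p under 0.05 and a lowest adjusted p of 0.0764. The median difference over all tested genes was 0.25, and 0.07 without Flox pool 1-3, and single differences stand beside that shift.

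Other count models passed a small set, mostly lower in cKO. DESeq2 on the recovered reads passed 30 of 3113 genes to which it gave an adjusted p, 8 higher (0.257%) and 22 lower (0.707%) in cKO, and gave none to 16450 genes. The voom method with sample quality weights, which gave Flox pool 1-3 the lowest weight, passed 19 genes as higher (0.203%) and 102 as lower (1.09%). The authors' deposited table held 20 genes at an adjusted p under 0.05, of which 5 were higher and 15 lower, and 17 genes were shared by that table, DESeq2 and voom. These calls depended on single libraries. DESeq2 passed 0 genes without Flox pool 4-7, without cKO pool 1-4 or without cKO pool 5-8, 46 without Flox pool 1-3, 32 without Flox pool 8-10 and 44 without cKO pool 9-12. Voom passed 0 without Flox pool 4-7 or cKO pool 5-8, 2 without Flox pool 8-10, 28 without cKO pool 1-4 and 278 without cKO pool 9-12. Without Flox pool 1-3 it passed 139, and 94 of these were among the 121 passed with all 6 libraries. Of the 30 DESeq2 genes, 29 had groups that did not overlap. Among all tested genes, every cKO library lay above every Flox library for 970 (10.4%) and below for 490 (5.23%). Without Flox pool 1-3 these shares were 16.9% above and 12.7% below. A positive difference was found in 6096 of the 9371 genes (65.1%), and a negative one in 3275 (34.9%). In genes with a read in all 6 libraries the shares without overlap were 7.5% above and 6.83% below. For each named gene that passed in DESeq2 or voom the method is given, and for all others values are given with no call.

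**Figure D1:**
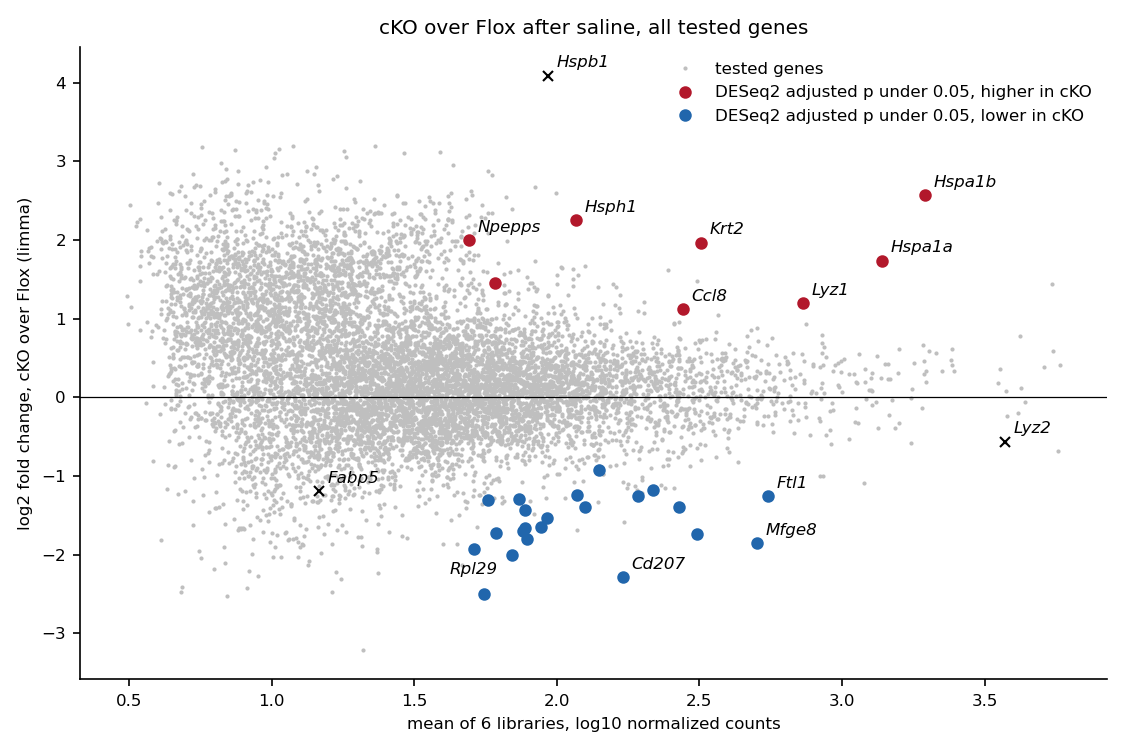
Each point is 1 of the 9371 tested genes, with its mean normalized count over 6 libraries on a log10 axis and its cKO minus Flox difference (log2) on the other. The 8 higher and 22 lower genes that passed in DESeq2 are coloured and lie among genes at moderate and high levels, and crosses mark Fabp5, Lyz2 and Hspb1, which did not pass.

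Fabp5 itself was sparse in these cells. It lies at chr3:10012548-10016607 (GRCm38) and had 6.36, 4.29 and 11.8 normalized counts in cKO, against 5.46, 36.5 and 23.9 in Flox. The lowest Flox value is that of pool 1-3, which stands on 1 read, so the groups overlapped. In reads, cKO held 18, 16 and 19 and Flox held 1, 15 and 21. Scaled to 1000000 reads per library (RPM), this came to 9.32, 5.36 and 16.6 RPM in cKO and 8.93, 50.9 and 33.0 in Flox. The 95% Clopper-Pearson intervals, which cover counting error only, ran from 0.226 to 49.8 in Flox pool 1-3 and from 20.4 to 50.4 in Flox pool 8-10, and the highest cKO interval, that of pool 9-12, ran from 9.99 to 25.9. Pooled over each group, cKO had 8.74 and Flox 35.4 RPM. The difference was -1.20 ± 0.79 (SE) with a limma adjusted p of 0.683, and -0.68 to -1.94 when 1 library was left out. It passed in voom (adjusted p = 0.0314), not in edgeR (0.404), and DESeq2 gave it no adjusted p. These libraries count the 3′ ends of transcripts, and the labels do not say which part of Fabp5 the loxP sites flank, so these counts need not tell a deleted allele from an intact one. After carrageenan the difference was -2.06.

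The neighbouring lysozyme genes differed from each other in direction. Lyz2, the lysozyme of myeloid cells and the locus that carries Cre, had 3093, 2858 and 2865 normalized counts in cKO, against 2906, 5174 and 5463 in Flox. The cKO pools lay close together at the level of Flox pool 1-3 and below the other Flox pools, and the difference was -0.57 ± 0.37 (limma adjusted p = 0.683), or -0.86 without Flox pool 1-3. Lyz1, its tandem copy, had 756, 1102 and 1186 in cKO, against 344, 559 and 423 in Flox. Every cKO pool lay above every Flox pool, and Lyz1 passed in DESeq2 (1.20 ± 0.29 in limma, adjusted p in DESeq2 = 0.0149).

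The balance of the lysozyme pair separated the genotypes. The ratio of Lyz1 to Lyz2 reads was 0.245, 0.386 and 0.414 in cKO and 0.118, 0.108 and 0.0775 in Flox, a mean of 0.348 ± 0.091 against 0.101 ± 0.021 (SD, n = 3 each). The sum of both genes was 3849, 3961 and 4051 in cKO and 3250, 5733 and 5887 in Flox. Their transcripts are identical at 96.0% of aligned bases and at 97.2% in the last 400 bases, where 3′ reads fall, so that reads may have been split or lost between the copies by the alignment and both levels are uncertain. Within 5 Mb of Lyz2 start 32 tested genes, counting Lyz2 and Lyz1 themselves. Of these, 6 were above (18.75%, against 10.4% of all tested genes), Lyz1 among them, and 2 below (6.25%, against 5.23%) without overlap. The median difference of the 32 was 0.07. Of 16 near Fabp5, counting Fabp5 itself, 3 were above (18.75%, against 10.4%) and 0 below (against 5.23%). The median of the 16 was 0.52 (0.07 without Flox pool 1-3).

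**Figure D2:**
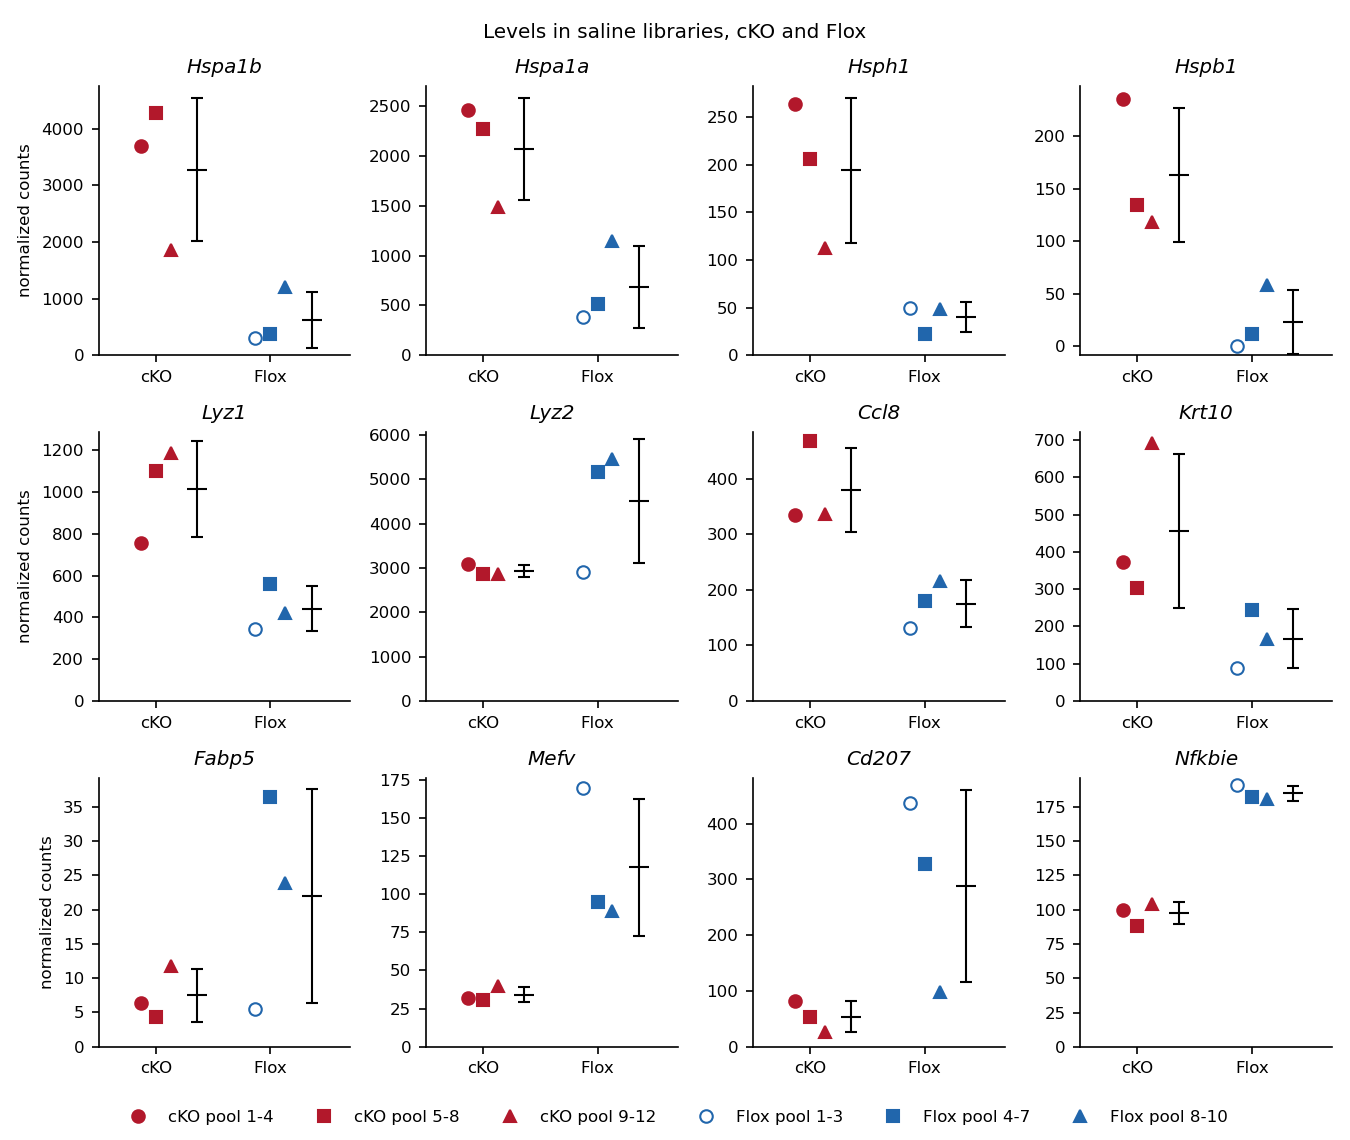
Normalized counts of 12 genes in each pool, cKO left and Flox right, with the group mean and SD (n = 3 pools each). The open circle is Flox pool 1-3, and the panels show Lyz1, Hspa1b and Ccl8 higher in every cKO pool, Mefv, Cd207 and Nfkbie lower in every cKO pool, and Lyz2 and Fabp5 with overlapping groups.

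Inducible heat shock genes were among the 8 genes that passed as higher, and Hsph1 and Hspa1b had the smallest limma p of those. These encode chaperones that refold proteins under stress, and heat shock factors drive them through repeats of the pentamer nGAAn, which face each other as GAANNTTC or TTCNNGAA. The windows of 250 bases before the start sites of the 3 heat shock genes that passed in DESeq2 are shown, since these genes were higher together. They are credited to RefSeq (GRCm38.p6), all on the minus strand, with the facing pair in capitals.
Hspa1b, chr17:34959239-34959488: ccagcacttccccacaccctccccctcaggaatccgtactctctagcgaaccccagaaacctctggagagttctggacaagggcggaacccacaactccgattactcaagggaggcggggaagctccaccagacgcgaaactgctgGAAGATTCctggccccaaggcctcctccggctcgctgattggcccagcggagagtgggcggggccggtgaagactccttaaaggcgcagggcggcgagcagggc
Hspa1a, chr17:34972157-34972406: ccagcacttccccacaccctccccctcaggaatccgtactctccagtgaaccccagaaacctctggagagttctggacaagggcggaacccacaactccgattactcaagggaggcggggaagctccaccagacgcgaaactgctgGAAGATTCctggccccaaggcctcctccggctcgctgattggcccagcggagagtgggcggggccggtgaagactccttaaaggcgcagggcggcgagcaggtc
Hsph1, chr5:149636337-149636586: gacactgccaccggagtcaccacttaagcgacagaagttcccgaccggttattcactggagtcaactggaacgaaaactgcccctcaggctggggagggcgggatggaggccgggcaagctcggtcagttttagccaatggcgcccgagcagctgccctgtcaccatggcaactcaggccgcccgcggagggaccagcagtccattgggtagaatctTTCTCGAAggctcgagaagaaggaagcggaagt

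The windows of Hspa1b and Hspa1a were identical at 98.8% of bases, and both held the pair at position -104, counted from the start site to the pair's first base. Hsph1 held it at -33 before the start used here. GAANNTTC occurred on either strand in 6.69% and TTCNNGAA in 7.17% of 32851 RefSeq windows of this length, and one or the other in 12.8%. Each pair reads the same on either strand, and the pairs can share a GAA or a TTC with one another. A motif of 3 such units occurred in 0.466% of windows and was absent from those of Hspa1b, Hspa1a and Hsph1. Of 43 tested heat shock and DnaJ genes with a window, 12 held a pair (27.9%), against 14.5% of 27025 genes of any kind. A match of letters is a description and does not show a site in use.

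Hspa1b and Hspa1a, twin genes of the inducible HSP70, had the largest amounts. Hspa1b had 3696, 4277 and 1868 normalized counts in cKO, against 306, 379 and 1200 in Flox. All cKO pools were above all Flox pools, though cKO pool 9-12 and Flox pool 8-10 came close, and the difference was 2.57 ± 0.55 (DESeq2 adjusted p = 0.00217). Hspa1a had 2463, 2272 and 1492 in cKO, against 382, 510 and 1153 in Flox, with cKO pool 9-12 and Flox pool 8-10 again the closest (1.74 ± 0.43, DESeq2 adjusted p = 0.0218). The transcripts of the twins are identical at 90.7% of aligned bases but at 57.4% in their last 400, so 3′ reads can tell them apart better than a count over the whole transcript would. Their sum averaged 5356 ± 1740 in cKO and 1310 ± 909 in Flox (SD, n = 3 each).

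Hsph1, a nucleotide exchange factor of HSP70, had 264, 206 and 113 in cKO, against 49.2, 21.9 and 48.9 in Flox. The lowest cKO pool was more than the highest Flox pool, and Hsph1 had the lowest adjusted p of any named gene in DESeq2 (2.26 ± 0.43, adjusted p = 0.000849). In the authors' deposited table it was first as well, with a log2 fold change of 1.85 and an adjusted p of 0.00188. Hspb1, the small heat shock protein HSP27, had 235, 135 and 118 in cKO, against 0, 12.2 and 58.0 in Flox. No pool overlapped, and the 4.09 ± 1.24 of limma, the largest difference of any tested gene, leans on the Flox pool with 0 reads. Without it the difference was 2.49. Hspb1 passed in voom (adjusted p = 0.00927) and not in DESeq2 (0.426).

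The rest of the family was less uniform. Of 52 tested genes whose symbols mark them as heat shock or DnaJ proteins, 8 lay above without overlap (15.4%, against 10.4% of all tested genes) and 1, Dnajb14, lay below, and 43 had a positive difference (82.7%, against 65.1%). Without Flox pool 1-3 the counts were 9 above and 6 below of 52, close to the 16.9% above and 12.7% below of all tested genes. With all 6 libraries, the genes above, besides the 4 described, were Dnaja1 (0.83), Dnajb1 (0.78), Dnajc10 (1.42) and Hspa5 (0.47). The first 3 are J-domain partners of HSP70, and Hspa5 is the HSP70 of the endoplasmic reticulum. The median was 0.52, or 0.08 without Flox pool 1-3, when the median of all tested genes was 0.07. Summed over the family, cKO held 15123, 13512 and 10288 RPM and Flox 5763, 6223 and 9114, without overlap. Hspa8, the constitutive HSP70, had -0.42 ± 0.35, Hsp90ab1 had 0.18 ± 0.37 and the mitochondrial chaperonin Hspd1 had 0.13 ± 0.30, each with groups that overlapped. Bag3, a co-chaperone outside the family by name, had 124, 86.8 and 80.2 in cKO and 43.7, 51.0 and 74.0 in Flox (0.79 ± 0.32), and Hsf1, the factor itself, 35.0, 24.1 and 36.1 in cKO and 10.9, 26.7 and 33.0 in Flox.

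Heat shock genes and immediate early genes are both known to be induced by tissue dissociation. The list of 22 immediate early and dissociation genes includes 4 of the heat shock genes. Without those 4, its other 18 tested genes had a median of 0.09, with 1 above and 1 below. Each is 5.56%, against 10.4% above and 5.23% below among all tested genes. Jun, an AP-1 subunit, was the one above, with 915, 546 and 429 in cKO and 284, 379 and 332 in Flox (0.86 ± 0.32). Its partner Fos had 1086, 1065 and 493 in cKO and 797, 1123 and 495 in Flox, with groups that overlapped (0.12 ± 0.42), and Junb had 0.07 ± 0.27. The time and handling of each pool are not given in the labels, and their part in the heat shock difference was not tested.

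Of the other genes on the higher side, 3 more passed in DESeq2 beside the keratin described below. Ccl8, a chemokine of resident macrophages that recruits leukocytes, had 335, 467 and 337 in cKO, against 131, 180 and 215 in Flox (1.12 ± 0.27, DESeq2 adjusted p = 0.0480). Npepps, a cytosolic aminopeptidase, had 89.8, 97.2 and 49.8 in cKO, against 10.9, 26.7 and 20.5 in Flox (2.00 ± 0.45, adjusted p = 0.0149). Rab12, a small GTPase of endosomal traffic, had 95.5, 98.3 and 73.4 in cKO, against 21.8, 38.9 and 37.5 in Flox (1.45 ± 0.34, adjusted p = 0.0482). In each of these genes all cKO pools lay above all Flox pools. Flox pool 1-3 held 2 to 24 reads of each, so its values come in coarse steps.

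Appl2, an adaptor of early endosomes, and Lman1, a cargo receptor between endoplasmic reticulum and Golgi, were also among the 10 higher genes with the smallest limma p whose groups did not overlap, at 1.44 ± 0.38 and 1.85 ± 0.50. Lman1 did not pass in DESeq2 (adjusted p = 0.144), and DESeq2 gave Appl2 no adjusted p. Hmox1, which breaks down haem, had 4310, 15014 and 5127 in cKO and 1720, 2238 and 4355 in Flox. The pool cKO 5-8 was far the highest, and the lowest cKO pool lay just under the highest Flox pool (1.43 ± 0.58). Gclm, of glutathione synthesis, followed the same pool, with 102, 316 and 107 in cKO and 49.2, 26.7 and 84.2 in Flox.

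Keratin transcripts, which macrophages do not normally make, were higher in cKO. Krt2, a keratin of upper epidermis, had 404, 348 and 736 in cKO, against 43.7, 221 and 175 in Flox (1.97 ± 0.58) and passed in DESeq2 (adjusted p = 0.0480). Krt14 of basal keratinocytes had 243, 192 and 356 in cKO, against 92.9, 148 and 123 in Flox (1.09 ± 0.31), and Krt10 of suprabasal ones 373, 302 and 692 in cKO, against 87.4, 245 and 167 in Flox (1.47 ± 0.44). All cKO pools were above all Flox pools in these genes, with cKO pool 9-12 highest each time. Of 13 tested keratinocyte markers, 6 lay above without overlap (46.2%, against 10.4% of all tested genes) and 0 below. All 13 had a positive difference (100%, against 65.1%), with a median of 1.37, or 0.92 without Flox pool 1-3. Summed over all keratin genes, cKO held 2233, 1588 and 3587 RPM and Flox 733, 1324 and 1086. The keratin sum and the heat shock sum were both higher in every cKO pool than in every Flox pool. Among cKO pools, pool 9-12 was highest in keratins and lowest in Hspa1b. The part of keratinocyte RNA in other results was not tested.

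Markers of other cell types were mostly low, and some of their sums separated the genotypes. Fibroblast markers summed to 554 to 1349 RPM in cKO and 152 to 1116 in Flox, and their 10 tested members had a median of 1.49, or 0.42 without Flox pool 1-3, with 0 above and 0 below. Endothelial markers summed to 61.6 to 143 in cKO and 62.5 to 98.5 in Flox, with 2 of 4 tested genes above. Mural markers summed to 41.5 to 113 in cKO and 8.93 to 34.5 in Flox, without overlap, with 2 of 2 tested genes above. Schwann and nerve markers summed to 927 to 1132 in cKO and 616 to 843 in Flox, without overlap, with 1 of 2 tested genes above. Of all tested genes, 10.4% lay above. Of 16 neutrophil markers 5 had no read, Ly6g among them, and their sum was 26.8 to 55.0 in cKO and 50.9 to 115 in Flox. T and NK cell markers summed to 49.8 to 79.3 in cKO and 26.8 to 67.9 in Flox, with no read of Cd3d, Cd8a, Trbc1, Ncr1 or Eomes, and no read of the B cell marker Cd79a. Of the sort genes, Ptprc (CD45) had 364, 514 and 247 in cKO and 262, 228 and 303 in Flox, and Itgam (CD11b) 329, 345 and 398 in cKO and 371, 335 and 332 in Flox. The groups overlapped in each, so the genes of the sort gate were present in both genotypes, and Ly6g was at 0 in all 6 libraries.

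**Figure D3:**
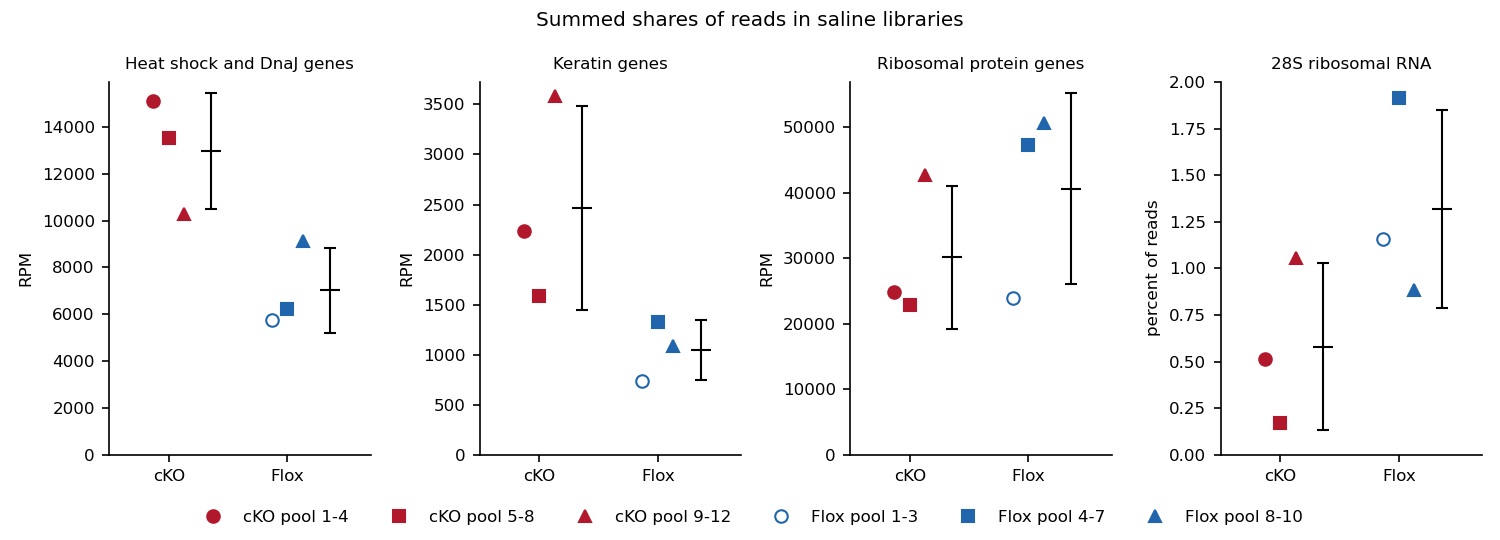
The sum of RPM over heat shock and DnaJ genes, keratin genes and ribosomal protein genes, and the percent of reads on 28S ribosomal RNA, in each pool, cKO left and Flox right, with mean and SD (n = 3 pools each). Heat shock and keratin sums are higher in every cKO pool, and ribosomal protein sums are lowest in cKO pools 1-4 and 5-8 and Flox pool 1-3.

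Ribosomal protein genes were 3 of the 22 lower genes in DESeq2 and 21 of the 102 in voom. Rpl10 had 97.2, 118 and 121 in cKO, against 235, 352 and 232 in Flox (-1.26 ± 0.26, DESeq2 adjusted p = 0.00452). Rpl29 had 24.0, 15.3 and 49.1 in cKO, against 104, 131 and 94.4 in Flox (-2.01 ± 0.43, adjusted p = 0.0117), and Rpl35 had 26.5, 20.9 and 67.2 in cKO, against 115, 122 and 122 in Flox (-1.80 ± 0.43, adjusted p = 0.0480). All Flox pools were above all cKO pools in these genes, which encode proteins of the large subunit.

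Over the family the direction held but the pools did not separate cleanly. Of 80 tested ribosomal protein genes, 65 had a negative difference (81.25%, against 34.9% of all tested genes). Without overlap, 8 lay below (10%, against 5.23%) and 0 above, and the median was -0.44, against 0.25 for all tested genes. Their sum was 24756, 22866 and 42714 RPM in cKO, against 23873, 47239 and 50637 in Flox, so that Flox pool 1-3 held as little as cKO pools 1-4 and 5-8, and cKO pool 9-12 came close to Flox pool 4-7. Without Flox pool 1-3 the median was -0.89 and 59 of 80 lay below, against 12.7% of all tested genes. The share of reads on 28S ribosomal RNA did not rank the pools as the ribosomal protein sum did. It was 0.512, 0.170 and 1.06% in cKO and 1.16, 1.92 and 0.885% in Flox, with groups that overlapped, and its part in the result was not tested. Ribosomal protein genes have many processed pseudogenes, among which alignment can divide reads, and 5 of the 30 genes that passed in DESeq2 are pseudogenes or gene models, so these levels are uncertain.

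The genes that the count models passed as lower had shorter transcripts, while those merely below without overlap hardly differed in length from the rest. The 17 protein-coding genes that DESeq2 passed as lower had a median transcript length of 1157 bases, and the 72 of voom 980, against 2138 over all 9095 tested protein-coding genes, while the 8 that DESeq2 passed as higher had 2586. The 422 protein-coding genes below without overlap had a median of 2032 bases and the 946 above 2152. Whether length had a part in the calls was not tested.

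Other lower genes that passed in DESeq2 span innate sensing, adhesion, chromatin and iron storage. Mefv, the gene of pyrin, a sensor that assembles an inflammasome, had 32.2, 30.8 and 39.8 in cKO, against 169, 94.8 and 88.7 in Flox. The cKO pools were close together and every Flox pool lay far above the highest of them (-1.70 ± 0.33, DESeq2 adjusted p = 0.00217). It was lower in the authors' deposited table too, with a log2 fold change of -1.49 and an adjusted p of 0.00608. Ftl1, the ferritin light chain, had 250, 326 and 396 in cKO, against 612, 921 and 794 in Flox (-1.26 ± 0.28, adjusted p = 0.00452). Itga5, the fibronectin receptor subunit, had 91.9, 52.2 and 69.0 in cKO, against 153, 170 and 172 in Flox (-1.24 ± 0.28, adjusted p = 0.0281).

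The histone variant genes H2afz and H3f3a were lower without overlap, at -1.65 ± 0.35 and -1.43 ± 0.31 (DESeq2 adjusted p = 0.00452 and 0.0117), and, like Ftl1 and the ribosomal genes, have processed copies elsewhere in the genome. The entry annotated as Mir703 had 100, 103 and 260 in cKO, against 486, 506 and 408 in Flox, and since these libraries prime on poly(A) tails this is no measure of a mature miRNA. A further 5 genes passed in DESeq2 and are named because they complete its list, after their values were seen. These are Gpr132, a receptor for oxidized fatty acids and lysophospholipids on macrophages (-1.18 ± 0.31), the membrane protein gene Plp2 (-1.53 ± 0.37), the antiproliferative Btg1 (-1.39 ± 0.34), the G protein subunit Gng5 (-1.31 ± 0.32) and Pxdc1 (-1.29 ± 0.31). Gpr132 had 151, 97.5 and 147 in cKO, against 415, 272 and 225 in Flox.

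Genes of the NF-κB system leaned lower, in a narrow range. NF-κB is the transcription factor family that drives much of the inflammatory response and induces its own inhibitors. Nfkbie, the inhibitor IκBε, had 99.7, 88.4 and 104 in cKO, against 191, 182 and 181 in Flox. The pools within each group nearly coincided, and Nfkbie passed in DESeq2 (-0.92 ± 0.22, adjusted p = 0.0480), with -0.85 to -0.97 when 1 library was left out. Of 20 tested targets and feedback genes, 6 lay below without overlap (30% against 5.23% of all tested genes) and 0 above, 16 had a negative difference (80% against 34.9%), and the median was -0.42, or -0.45 without Flox pool 1-3.

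The other 5 genes below did not pass in DESeq2. Nfkb2, the p100 subunit, had 124, 95.9 and 122 in cKO and 235, 177 and 212 in Flox (-0.86 ± 0.24). Its partner Relb had 40.3, 23.6 and 61.6 in cKO and 98.3, 72.9 and 78.5 in Flox (-1.07 ± 0.39). Traf1, an adaptor of TNF receptors, had -1.32 ± 0.40, Tnip1, which restrains the pathway with A20, -1.18 ± 0.33, and Birc3, a ubiquitin ligase of the pathway, -0.55 ± 0.26. The summed level of the list was 5989, 6225 and 6719 RPM in cKO, against 8390, 7608 and 9036 in Flox, without overlap. After carrageenan the median of the same genes was -0.09.

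Chemokines and cytokines were mixed. Of 21 tested, 3 lay above (14.3%, against 10.4% of all tested genes) and 0 below, with a median of 0.48. Without Flox pool 1-3, 3 of 21 lay above and 3 below, close to the 16.9% and 12.7% of all tested genes, with a median of 0.21. Besides Ccl8 the genes above with all 6 libraries were Ccl4, with 301, 485 and 269 in cKO and 43.7, 122 and 248 in Flox, and Cxcl10, with 83.4, 80.3 and 34.2 in cKO and 0, 19.4 and 17.1 in Flox. Il1b had 563, 686 and 930 in cKO and 808, 1028 and 1495 in Flox (-0.60 ± 0.32), and Tnf had 436, 518 and 374 in cKO and 137, 226 and 478 in Flox (0.84 ± 0.42), both with groups that overlapped. Ccl17, a chemokine of dendritic cells, was lower in voom alone (-0.82 ± 0.39 in limma, voom adjusted p = 0.0381). Interferon-stimulated genes had 1 above (5.88%, against 10.4% of all tested genes) and 2 below (11.8%, against 5.23%) of 17 tested, with a median of 0.29. Without Flox pool 1-3, 1 lay above and 5 below, against 16.9% and 12.7% of all tested genes, and the median turned to -0.10.

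Markers of resident macrophages leaned higher, and those of inflammatory monocytes leaned lower by their median but not by their sum. Of 23 resident macrophage markers, all tested, 6 lay above without overlap (26.1%, against 10.4% of all tested genes) and 0 below, 19 had a positive difference (82.6%, against 65.1%), and the median was 0.46. Without Flox pool 1-3, 9 of 23 lay above and 0 below, against 16.9% and 12.7% of all tested genes, with a median of 0.32. Among them were the complement receptor Vsig4 (1.13 ± 0.43), the complement genes C1qc (0.67 ± 0.35) and C1qb (0.62 ± 0.33), Cbr2 (0.57 ± 0.26) and the folate receptor Folr2 (0.40 ± 0.24). Cbr2 had 883, 989 and 1164 in cKO and 546, 756 and 753 in Flox. The scavenger receptor Cd163 had -0.02 ± 0.26 and the mannose receptor Mrc1 0.25 ± 0.30. None of the markers passed in DESeq2 or voom, and DESeq2 gave Vsig4 no adjusted p. Their summed level was 30446, 35644 and 31826 RPM in cKO, against 22694, 28440 and 26301 in Flox, without overlap.

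Of 15 inflammatory monocyte markers, all tested, 0 lay above or below without overlap, 10 had a negative difference (66.7%, against 34.9% of all tested genes), and the median was -0.35. With Flox pool 1-3 left out, 3 of 15 lay below and 0 above, against 12.7% and 16.9% of all tested genes, with a median of -0.66. Their sum was 6441, 8219 and 9406 RPM in cKO and 6486, 8355 and 9659 in Flox. Voom passed 2 of them as lower, Chil3, a chitinase-like protein, with 11.3, 13.4 and 26.7 in cKO and 16.4, 34.0 and 59.2 in Flox, and the haptoglobin gene Hp, with 6.36, 8.57 and 28.6 in cKO and 0, 31.6 and 68.3 in Flox. Ccr2, the receptor by which monocytes enter tissue, had 205, 209 and 261 in cKO and 147, 289 and 257 in Flox.

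**Figure D4:**
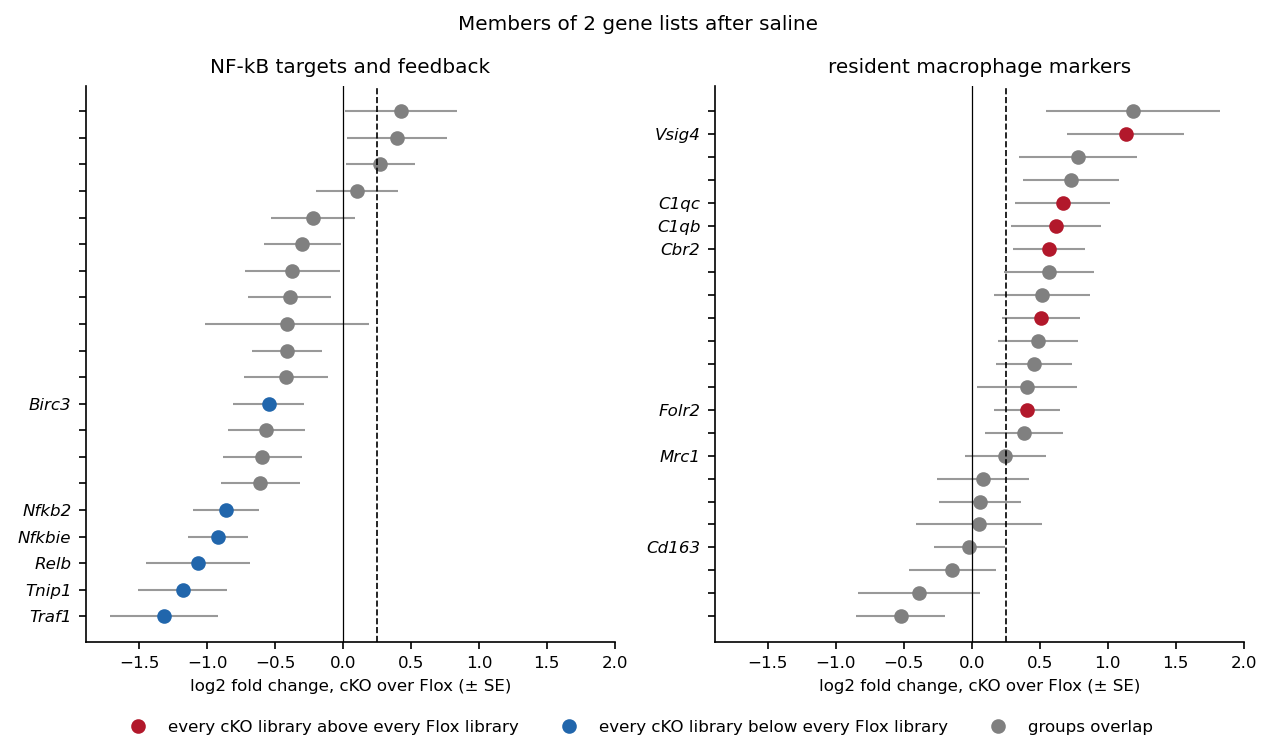
Differences of cKO minus Flox (log2, limma) with SE for the tested NF-κB genes and resident macrophage markers, with the median of all tested genes as a dashed line. Genes that the text describes are labelled. Most NF-κB genes lie left of the line and most macrophage markers at or right of it.

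Cd207, the gene of langerin, had the most negative difference of the named genes that passed in DESeq2. It marks Langerhans cells of the epidermis and some dermal dendritic cells, and had 82.0, 53.8 and 26.1 in cKO, against 437, 328 and 99.0 in Flox (-2.29 ± 0.60, DESeq2 adjusted p = 0.00452). All cKO pools were below all Flox pools, and cKO pool 9-12 and Flox pool 8-10 were the lowest of their groups. Mfge8, which bridges dying cells to phagocytes and is made by Langerhans cells and macrophages, had 370, 194 and 97.6 in cKO, against 1010, 1016 and 328 in Flox (-1.86 ± 0.57, adjusted p = 0.0482). Its groups overlapped, and the pools cKO 9-12 and Flox 8-10 were again the lowest of their groups. Epcam, also of Langerhans cells, had 18.7, 26.5 and 6.22 in cKO and 5.46, 72.9 and 17.1 in Flox, with 1 read in Flox pool 1-3. Cd207 and Mfge8 were named after their values were seen.

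Antigen presentation genes leaned the same way. Of 12 tested genes of the MHC class II list, 3 lay below (25%, against 5.23% of all tested genes) and 0 above. A negative difference was found in 11 (91.7%, against 34.9%), and the median was -0.40. When Flox pool 1-3 was left out, 7 of 12 lay below, against 12.7% of all tested genes, and 0 above, with a median of -0.62. Those below with all 6 libraries were H2-DMb2 (-1.14), H2-Ob (-0.76) and the costimulator Cd86 (-0.42 ± 0.23). The class II genes H2-Aa and H2-Ab1 differed little in the authors' deposited table. Their log2 fold changes there were -0.04 and -0.20, with adjusted p of 0.984 and 0.891. Cd74, the invariant chain, had 4317, 3341 and 5497 in cKO and 5107, 8703 and 7475 in Flox. The list summed to 21756, 24539 and 22075 RPM in cKO, against 27742, 32284 and 27310 in Flox, without overlap. Of 9 tested dendritic cell markers 0 lay above and 1 below (11.1%, against 5.23% of all tested genes). This was Cd209a, with 54.5, 77.9 and 74.6 in cKO and 98.3, 97.2 and 122 in Flox.

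Genes of lipid handling, the pathway of FABP5, gave no call in DESeq2. Of 14 fatty acid and retinoid binding proteins, 8 had a read and 3 were tested, which were Fabp5, Fabp4 and Crabp2. DESeq2 gave these 3 genes no adjusted p. Fabp4, the binding protein of adipocytes and macrophages, had 25.5, 14.7 and 24.3 in cKO and 0, 19.4 and 19.3 in Flox, with 0.10 in place of 1.55 once Flox pool 1-3 was left out. Of 17 tested PPAR targets and lipid uptake genes, 4 lay above (23.5%, against 10.4% of all tested genes) and 1 below (5.88%, against 5.23%), with a median of 0.42. Without Flox pool 1-3, 6 of 17 lay above and 2 below, against 16.9% and 12.7% of all tested genes, with a median of 0.28. The list summed to 5270, 5481 and 4321 RPM in cKO, against 4110, 4213 and 3911 in Flox, without overlap. The lipid droplet protein Plin2 had 229, 240 and 201 in cKO and 98.3, 146 and 173 in Flox (0.71 ± 0.27), and the lipase Lpl 689, 603 and 590 in cKO and 497, 523 and 391 in Flox (0.42 ± 0.24). The receptor genes themselves were sparse, with Pparg at 6.01, 11.5 and 9.95 in cKO and 0, 7.29 and 11.4 in Flox.

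Prostanoid genes, which make and sense the lipid mediators of pain, had 0 above and 1 below of 14 tested, with a median of 0.02. The share below was 7.14%, against 5.23% of all tested genes. The one below was Ptges3, a prostaglandin E synthase and HSP90 co-chaperone, with 77.4, 102 and 126 in cKO and 180, 170 and 152 in Flox (-0.74 ± 0.26). Ptgs2, the inducible cyclooxygenase, had 29.0, 50.6 and 37.3 in cKO and 38.2, 14.6 and 101 in Flox. Of 6 tested endocannabinoid genes 1 lay above (16.7%, against 10.4% of all tested genes), the hydrolase Abhd12, with 239, 177 and 179 in cKO and 109, 146 and 167 in Flox. None of the genes of these lists passed in DESeq2, which gave some of them no adjusted p, and Fabp5 alone passed in voom.

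**Figure D5:**
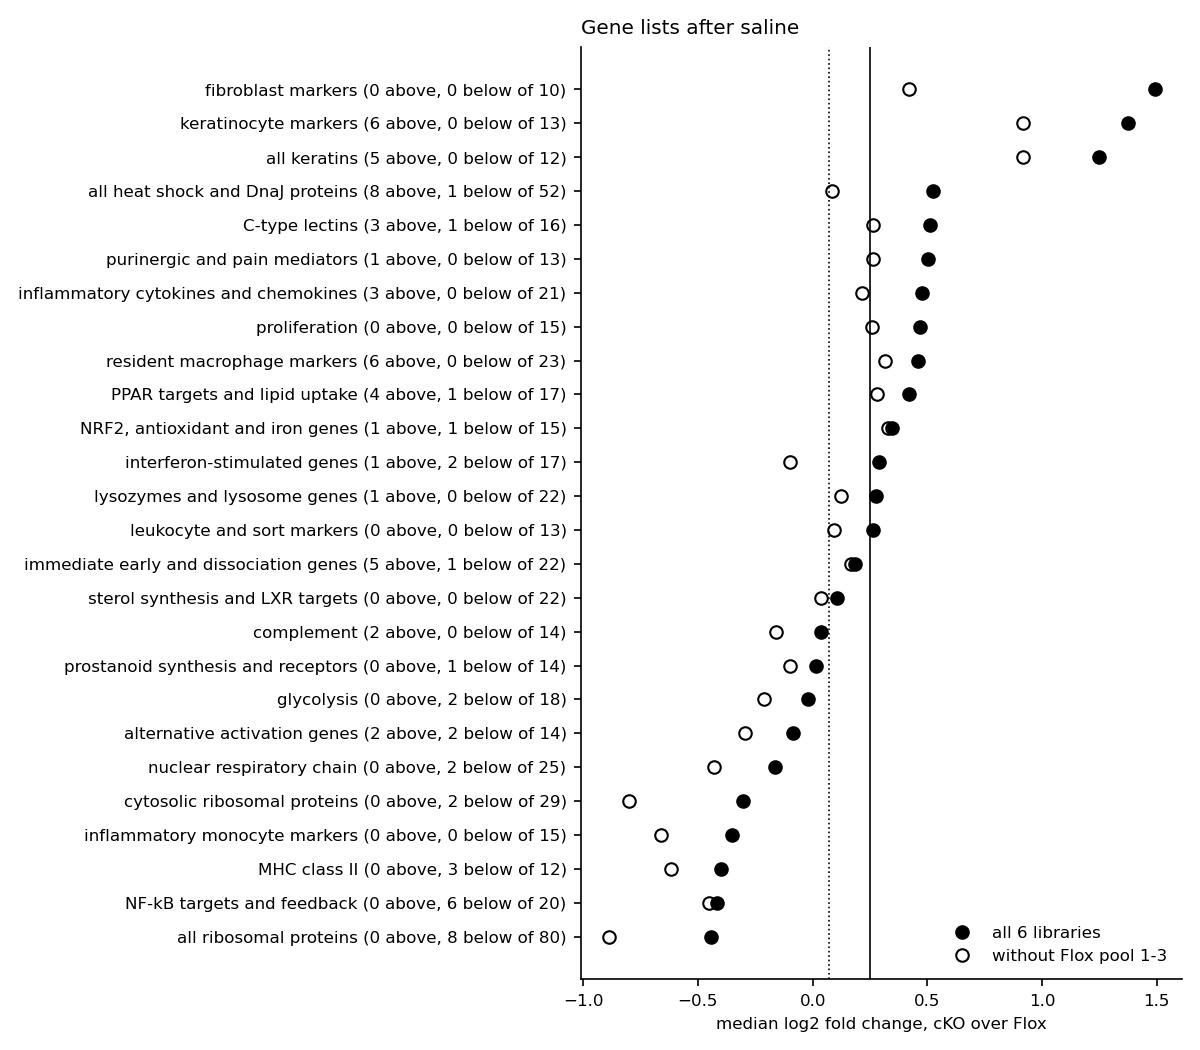
Median difference of cKO minus Flox (log2) of each gene list with at least 10 tested members, filled for all 6 libraries and open without Flox pool 1-3, with the median of all tested genes as a solid and a dotted line. Fibroblast and keratinocyte markers are farthest right, ribosomal proteins and NF-κB genes farthest left, and the fibroblast list shifts most when that pool is left out.

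Set beside the carrageenan libraries, no gene passed the test of a genotype effect that differed between treatments. The difference of effects, saline minus carrageenan, was tested in 10243 genes over 12 libraries, and limma called 0 (0%), with 244 at an unadjusted p under 0.05 and a lowest adjusted p of 0.967. The edgeR test called 0 as well, with 233 at an unadjusted p under 0.05. The 5 genes with the smallest p were Cutc, Adh7, Gzma, Cd2 and Zfp574, which had 0 to 3 reads in all Flox saline pools together.

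The genes that passed after saline had the same sign after carrageenan, where depth was again mostly greater in cKO. All 30 DESeq2 genes and 110 of 113 voom genes with a value did so, as did 5502 of 8657 tested genes (63.6%). Pools of the same mouse numbers appear under both treatments, and the labels do not say whether they are the same mice. For Hspa1b the difference was 2.57 after saline and 2.61 after carrageenan, for Hsph1 2.26 and 1.77, for Lyz1 1.20 and 1.37, and for Ccl8 1.12 and 1.65. For Mefv it was -1.70 after saline and -0.81 after carrageenan, for Cd207 -2.29 and -0.87, and for Krt2 1.97 and 0.52. The limma test of the difference gave these 7 genes adjusted p-values of 0.967 to 0.997.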

How the data were processed

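RNA of 12 libraries, each from a pool of 3 or 4 mice, was sequenced from sorted paw cells as 3′ mRNA libraries with unique molecular identifiers, per the labels' protocols. Cutadapt, STAR and the genome GRCm38 are named, per the submitters' processing notes, while tool versions, counter and annotation stand in none of the sources used here. The deposited signal is a normalized count per gene, scaled by the authors separately for saline and carrageenan. Per the file headers, the authors' other table gives a log2 fold change with its standard error, a test statistic (score) and a p-value per gene. Each value was a whole multiple of the smallest one in its library (100% of low values, tolerance 0.001), and division gave whole reads. Nothing shows whether these reads are molecules, and intervals cover counting error only. Of 55401 gene IDs, 55141 were matched to symbols of GENCODE vM21, and 121 entries that are not genes were left out.

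The main test was limma 3.58.1 (R 4.3.3, mean trend) on log2 of the deposited value plus 1, for genes that reached 5 in 3 or more libraries, at an adjusted p under 0.05 (Benjamini-Hochberg over all tested genes). The plan expected normalized counts, so this test was kept, and edgeR 4.0.16, DESeq2 1.42.0 and voom with sample weights ran on whole reads as alternatives. On simulated counts with 200 genes changed by 2 on the log2 scale, limma found 162 and edgeR 183, with 1 and 10 false calls. The changed genes all had a mean of 20 or more. The simulated spread followed a smooth trend with level, with no added deviation for Flox pool 1-3, so these counts need not hold for the real libraries. Named were Fabp5, Lyz2 and Lyz1, the sort genes, the 10 genes with the smallest limma p in each direction without overlap of groups and with a mean of 20 or more, the authors' first 5, up to 4 members per list by limma p, and the first 5 by p for the difference between treatments. Gene models and pseudogenes were counted and not named, some list members are not reported here, and genes outside the rule were chosen after their values were seen. Genes and lists were chosen with earlier results of these data known. The families of all heat shock, keratin and ribosomal protein genes were defined by symbol after values were seen.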

Additional observations from a re-analysis of the deposited data

Results flagged for a closer look

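The genotype difference ran in opposite directions under the 2 treatments in 2 named genes, with no overlap of groups in either treatment. Ptges3 was lower in cKO after saline and higher after carrageenan, where the lowest cKO pool and the highest Flox pool nearly met, with 132 ± 11 normalized counts in cKO and 121 ± 1.6 in Flox (SD, n = 3 each). The difference of effects was -0.86 (log2, limma adjusted p = 0.967). Cd2, a T and NK cell gene, was higher in cKO after saline, on 50 reads in cKO and 2 in Flox, and lower after carrageenan, with a difference of effects of 3.81 (limma adjusted p = 0.967). Neither passed the test of the difference.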

How the results depend on the processing

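The count of 0 genes called by limma stayed at 0 with a pseudocount of 5, without the filter, with a read required in all 6 libraries, after thinning, on the TMM scale, without each library in turn, and in edgeR under both scalings. It was 30 in DESeq2 and 121 in voom with sample weights. With single libraries left out, an alternative chosen after seeing the data, the counts ranged from 0 to 46 in DESeq2, from 0 to 278 in voom and from 0 to 28 in edgeR. Fabp5 passed in voom alone (-2.0) and Lyz1 in DESeq2 alone (1.19). Of 80 other named genes under all alternatives, 1104 values kept direction and side of the threshold, 48 moved past the threshold, all in DESeq2 or voom, and 34 turned sign. After thinning, Itgam was at -0.15, H2-DMb2 at 0.000983, Fos at -0.079, Junb at -0.026, Ptgs2 at 0.50 and Ccr2 at -0.36. In voom, Hspd1 was at -0.067, Pparg at -0.25 and Ccr2 at -0.27, and Ccr2 was at -0.071 in DESeq2, -0.0080 on the TMM scale, -0.092 in edgeR and -0.066 in edgeR on the deposited scale. With 1 library left out, differences ranged from -0.037 to 0.10 for Itgam, -0.19 to 0.50 for Fos, -0.018 to 0.22 for Junb, -1.21 to 0.55 for Epcam, -0.19 to 0.42 for Hsp90ab1, -0.10 to 0.31 for Hspd1, -0.16 to 0.10 for Cd163, -0.70 to 0.66 for Ptgs2, -0.038 to 1.78 for Pparg, -0.28 to 0.20 for Ccr2 and -1.89 to 1.16 for Hp. The cause was not tested. For the difference between treatments, the fit with the pool as a replicate block called 0 genes, with 282 at an unadjusted p under 0.05. Pools with the same mouse numbers correlated at 0.199, 0.337 and 0.435 in cKO and 0.00889, -0.0185 and 0.110 in Flox, so the numbers do not establish a pairing across both genotypes. Genes under 16.4 normalized counts cannot be followed in Flox pool 1-3, where that value equals 3 reads and 1 read equals 5.46.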
